A study of Homo sapiens with 8 samples.

Results

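The arms of 5 related microRNA (miRNA) hairpins of the X chromosome, miR-500a, miR-500b, miR-501, miR-502 and miR-660, were followed in 786-O cells with and without an shRNA against circSOD2. The members were chosen by name and by their place in the CLCN5 cluster, and an entry in the count table was the only measured value that the rule used. All 10 arms looked for had an entry, out of 3112 entries that comprised 1482 known and 1630 predicted miRNAs. Small RNA was sequenced from 4 negative control (NC) samples and 4 circSOD2-sh samples of 786-O, an established line of clear cell renal cell carcinoma. Both groups were, by their labels, transfected with plasmids and harvested after 48 h, while the study's methods describe knockdown with lentivirus and puromycin, and neither names which of the study's shRNAs these samples carried. The counts cover small RNA and give no level of circSOD2 itself, so they do not check the labels. Whether the 4 samples of a group came from separate cultures was not stated, so p-values measure the spread between these samples, which may be technical.

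A miRNA hairpin is trimmed by Drosha and Dicer into a short duplex, and either strand of it, named 5p or 3p after its arm, can be loaded into an Argonaute protein. Bases near the 5′ end of the loaded strand, the seed, pair with target mRNAs, so related hairpins with shifted or altered ends can address different targets. CLCN5, the host gene of the cluster, encodes a chloride and proton exchanger of endosomes in the kidney proximal tubule.

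On GRCh38 the hairpins lay on the plus strand within 6253 bases, in the order MIR500A (chrX:50008431-50008514), MIR501 (chrX:50009722-50009805), MIR500B (chrX:50010672-50010750), MIR660 (chrX:50013241-50013337) and MIR502 (chrX:50014598-50014683). The hairpins of miR-532, miR-188 and miR-362 lay on the same strand, and all 8 fell within 11536 bases. In the GENCODE annotation 3 of 9 CLCN5 transcripts spanned each hairpin and 0 had an exon there, so the hairpins were intronic in those transcripts.

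The mature sequences are shown because the results compare arms and paralogs, and 9 of the 10 members had one in RefSeq (GRCh38.p14). Each runs 5′ to 3′ with the seed, bases 2 to 8, in capitals. miR-362-5p, from another hairpin of the cluster, is added because it shares its seed with miR-500b-5p. The remaining member is hsa-miR-660-5p.
hsa-miR-500a-5p: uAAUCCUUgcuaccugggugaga
hsa-miR-500b-5p: aAUCCUUGcuaccugggu
hsa-miR-362-5p: aAUCCUUGgaaccuaggugugagu
hsa-miR-501-5p: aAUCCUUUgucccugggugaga
hsa-miR-502-5p: aUCCUUGCuaucugggugcua
hsa-miR-500a-3p: aUGCACCUgggcaaggauucug
hsa-miR-500b-3p: gCACCCAGgcaaggauucug
hsa-miR-501-3p: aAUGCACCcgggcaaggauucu
hsa-miR-502-3p: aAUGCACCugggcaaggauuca
hsa-miR-660-3p: aCCUCCUGugugcauggauua

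miR-501-3p and miR-502-3p had the same seed and differed by the substitutions C9U and U22A, counted from 1 at the 5′ end with the miR-501-3p base first. miR-500a-3p shared a run of 20 bases with miR-502-3p but started later, and its seed was its own. The 18 bases of miR-500b-5p lay whole inside miR-500a-5p, which gave the pair different seeds from the same letters. Apart from the pairs named here, the seeds of the 9 members with a sequence were found in no other human miRNA of the RefSeq table.

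The hairpins of miR-500a and miR-500b are shown with both mature arms in capitals, because reads of their 5p arms cannot be told apart by sequence alone.
MIR500A: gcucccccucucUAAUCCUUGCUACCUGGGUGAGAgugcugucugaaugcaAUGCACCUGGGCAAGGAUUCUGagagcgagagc
MIR500B: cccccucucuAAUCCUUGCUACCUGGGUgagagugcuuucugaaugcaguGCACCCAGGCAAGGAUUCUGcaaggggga

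All 23 bases of miR-500a-5p occurred in both hairpins. The first 21 bases of miR-502-3p also occurred in the hairpin of miR-500a. How reads that match more than 1 of these sequences were assigned was not given in the sources used here, so the split between miR-500a-5p and miR-500b-5p, and between miR-500a-3p and miR-502-3p, is uncertain. No member had the same 8 counts as another entry of the table.

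An NC library held between 6386872 and 9245044 counts and a circSOD2-sh library between 3743860 and 4208276, of which the members had 1706 to 2683 and 4489 to 4791. Predicted miRNAs took up between 58.1 and 63.8% of an NC library and between 3.54 and 4.93% of a circSOD2-sh library. A single predicted miRNA accounted for 54.3 to 59.1% of NC counts and 0.0628 to 0.105% of circSOD2-sh counts. Levels are therefore given as normalized CPM, counts scaled to a common library size after TMM, a factor computed as if the bulk of miRNAs did not differ. A count of 3, used as the floor below which a library holds too few reads to compare, corresponded to 0.460 to 0.674 normalized CPM. Floors and counting intervals cover counting error only, since PCR copies of a read are not independent molecules.

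NC replicate 4 and circSOD2-sh replicate 2 stood apart by markers of other cell types. The 7 neural markers summed to 522, 561, 553 and 525 normalized CPM in NC replicates 1 to 4, and to 494, 5256, 490 and 476 in circSOD2-sh replicates 1 to 4. The most abundant of the list was miR-128-3p, except in circSOD2-sh replicate 2, where it was at 899 normalized CPM and miR-124-3p at 3217. miR-124-3p, a neuronal miRNA, had 18220 counts in circSOD2-sh replicate 2 and 5 to 15 elsewhere, and miR-124-5p had 10 counts there and 0 in the other 7 libraries. The 4 stromal markers, led by miR-143-3p, summed to 557 normalized CPM in NC replicate 4 and 228 in circSOD2-sh replicate 2, against 7.39 to 13.4 in the remaining libraries. These libraries were also high in the 4 leukocyte markers, led by miR-142-5p, with 17.1 and 14.7 against 1.19 to 3.21. miR-223-3p, the defining marker of myeloid cells, was at 0 counts in both. The 4 erythroid markers summed to 171 and 59.9 in them, led by miR-451a, and to 21.6 to 42.6 elsewhere, where either miR-451a or miR-486-5p was the highest. The 4 muscle markers had their highest sum in NC replicate 4 at 47.4, and ranged from 9.38 to 30.4 in the others. Their most abundant miRNA, miR-1-3p, was lowest in NC replicate 4 at 6.74, and the sum there came mainly from miR-206 at 24.3 and miR-133a-3p at 10.1. The liver marker miR-122-5p was at 3.75 to 5.83 in the NC libraries and at 1.36 to 2.49 in the circSOD2-sh libraries. The 7 kidney tubule markers, led by miR-30a-5p, summed to between 40851 and 56204. miR-30a-5p made up most of that sum. miR-192-5p of the list reached 953 in NC replicate 4, while the remaining NC libraries had from 335 to 361 and the circSOD2-sh libraries from 269 to 282, and it was the kidney tubule marker called lower. miR-194-5p was at 92.4 in NC replicate 4 and at 20.7 to 30.2 elsewhere. miR-204-5p had 0 to 9 counts outside circSOD2-sh replicate 2, which had 164. The part of these markers in the members' levels was not tested, and the results are also given without both libraries. By edgeR's quasi-likelihood test, 2 of 5 tested neural, 1 of 2 muscle and 2 of 5 kidney tubule markers were called higher. Called lower were 1 kidney tubule marker and miR-122-5p, and 0 of 1 stromal, 0 of 1 leukocyte and 0 of 2 erythroid markers were called. Of all 895 miRNAs tested, 65.7% were called and 33.3% were called higher. The neural calls were miR-124-3p and miR-129-5p, with 18220 and 133 counts in circSOD2-sh replicate 2. The other circSOD2-sh libraries had 11 to 15 and 14 to 22. In bulk samples, more cells of a type and more RNA per cell cannot be told apart.

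The members that had enough reads to test were higher in circSOD2-sh. Among the 4 most abundant members, miR-501-3p had the largest fold change, miR-502-3p came next, and miR-660-5p and miR-500a-3p had the smallest. Of the 10 members 9 passed the filter on low counts, and miR-660-3p did not. All 9 were called higher at an adjusted p under 0.05 by edgeR's quasi-likelihood test with Benjamini-Hochberg adjustment over the 895 miRNAs tested, of which 65.7% were called in either direction and 33.3% were called higher. In all 9 every circSOD2-sh library lay above every NC library, which held for 28.5% of the miRNAs tested. Of the 9, 5 had at least 10 counts in every library, and the other 4 had under 10 in every NC library and passed the filter through circSOD2-sh alone, so those could only be higher. The median log2 fold change of those 5 was 1.14, beside 0.10 over the 587 tested miRNAs with at least 10 counts in every library. Over all 9 it was 1.84, beside -0.00 over all 895. Members at the floor in NC, set to the lower interval end of their pooled ratio, stayed above it, so this replacement could not move the median. Without NC replicate 4 and circSOD2-sh replicate 2, all 9 were called again. Scaling by library totals moved the median of all miRNAs to 0.96 and the upper quartile moved it to 0.83. With library totals 613 miRNAs were called higher and 158 lower, in place of 298 and 290. The 9 members kept their direction, with miR-500a-3p 0.62 and miR-660-5p 0.67 above the shifted median. Scaling shifts all miRNAs by about the same amount, so distances to the median, here and below, do not test the scaling.

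**Figure D1:**
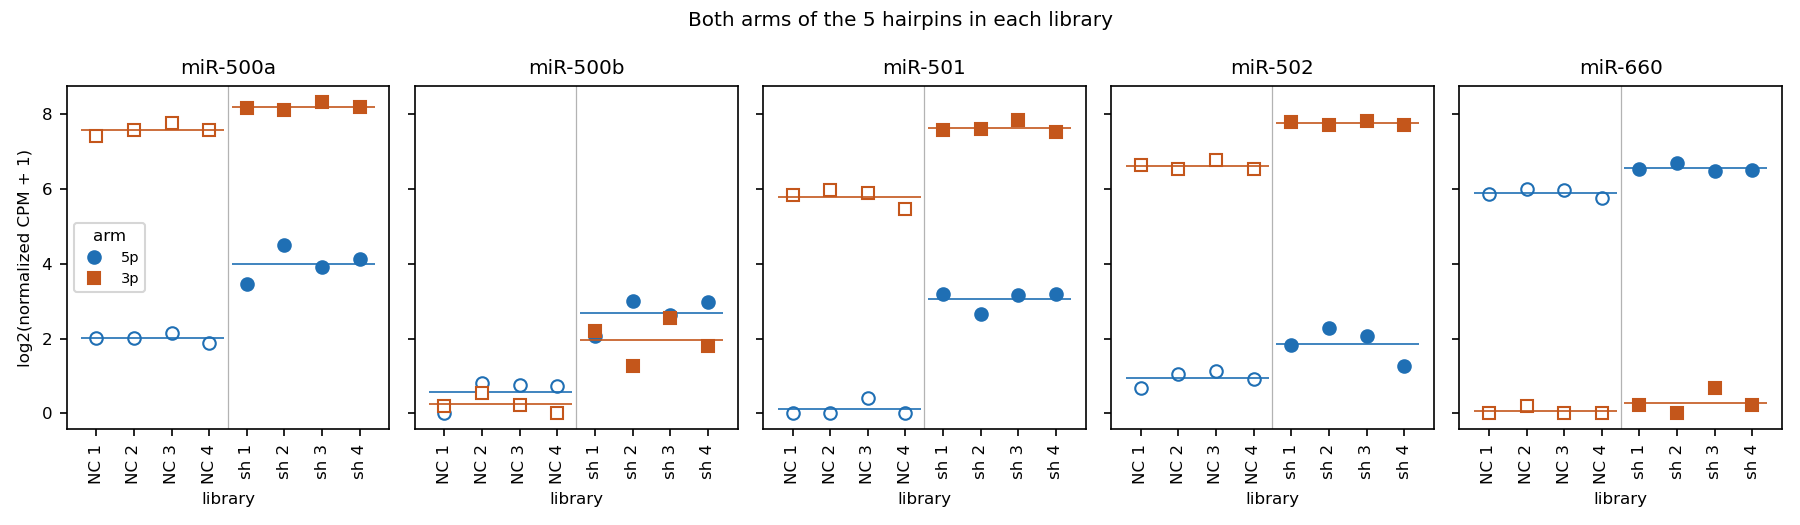
Level of both arms of each hairpin in the 8 libraries, as log2 of the normalized CPM plus 1 (open symbols NC, filled symbols circSOD2-sh, circles 5p, squares 3p, lines the group means). The 3p arms of miR-500a, miR-501 and miR-502 sit above their 5p arms in all libraries, and miR-660 is the reverse.

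miR-500a-3p was the most abundant member in both groups. Its level was 171, 191, 215 and 190 normalized CPM in NC replicates 1 to 4 and 286, 276, 323 and 291 in circSOD2-sh replicates 1 to 4. The lowest circSOD2-sh library lay above the highest NC library. The means were 192 ± 17.9 and 294 ± 20.1 (SD, n = 4 each), and the log2 fold change in circSOD2-sh was 0.62 ± 0.10 (SE) with an adjusted p of 0.000339 by edgeR's quasi-likelihood test. Its partner miR-500a-5p was far less abundant, with 20, 20, 20 and 12 counts in NC and 59, 122, 70 and 92 in circSOD2-sh. Among the circSOD2-sh libraries replicate 2 was the highest and replicate 1 the lowest, and all lay above NC. The means in normalized CPM were 3.06 ± 0.292 and 15.5 ± 4.81 (SD, n = 4 each), and the log2 fold change in circSOD2-sh was 2.32 ± 0.25 (SE) with an adjusted p of 1.71e-05 by edgeR. Without both libraries that stood apart the changes were 0.53 and 1.97, with adjusted p of 0.001 and 3.56e-05 by edgeR.

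miR-501 showed the same order of arms, with larger fold changes. miR-501-3p was at 56.1, 62.0, 58.7 and 43.6 normalized CPM in NC and 190, 192, 228 and 183 in circSOD2-sh. NC replicate 4 was the lowest library and circSOD2-sh replicate 3 the highest, and the lowest circSOD2-sh value was above the highest NC value. The means were 55.1 ± 8.04 and 198 ± 20.1 (SD, n = 4 each), and the log2 fold change was 1.84 ± 0.13 (SE) with an adjusted p of 9.22e-07 by edgeR. miR-501-5p had 0, 0, 2 and 0 counts in NC and 48, 30, 40 and 46 in circSOD2-sh. Thus 3 NC libraries held no read of it, and each circSOD2-sh library held at least 30. The ratio of the pooled and scaled counts was 86.4 with an exact 95% counting interval of 23.5 to 719, and edgeR gave an adjusted p of 3.86e-06. The NC reads were all in replicate 3, and without it the level was at least 14.4-fold higher against the floor of 3 counts in each of the other 3 NC libraries. Without both libraries that stood apart miR-501-3p had a log2 fold change of 1.66 with an adjusted p of 1.06e-07 by edgeR, and the pooled ratio of miR-501-5p was 76.7 (20.8 to 640).

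Both arms of miR-502 were called higher. A difference between their changes was not called in the main test of their ratio, but was called with a constant of 2, as given below. miR-502-3p was at 98.3, 92.2, 108 and 92.6 normalized CPM in NC and 220, 209, 226 and 207 in circSOD2-sh. Within each group the 4 libraries were close, and the groups were far apart. The means were 97.9 ± 7.57 and 216 ± 9.01 (SD, n = 4 each), and the log2 fold change in circSOD2-sh was 1.14 ± 0.09 (SE) with an adjusted p of 2.09e-06 by edgeR. miR-502-5p had 4, 7, 7 and 4 counts in NC and 15, 22, 16 and 8 in circSOD2-sh. Replicate 4 was the lowest circSOD2-sh library, and in normalized CPM it still exceeded every NC library, at 1.42 against a highest NC value of 1.19. The log2 fold change of miR-502-5p was 1.53 ± 0.36 (SE), with an adjusted p of 0.00417 by edgeR, and 1.19 with an adjusted p of 0.0214 without both libraries that stood apart. For miR-502-3p the value without them was 1.03.

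Both arms of miR-500b were near the floor in NC. miR-500b-5p had 0, 5, 4 and 3 counts in NC and 19, 40, 26 and 39 in circSOD2-sh. miR-500b-3p had 1, 3, 1 and 0 counts in NC and 21, 8, 24 and 14 in circSOD2-sh. For each arm the circSOD2-sh libraries were above all NC libraries, and circSOD2-sh replicate 2 was the highest for the 5p arm and the lowest for the 3p arm. The pooled ratio was 10.9 (exact 95% counting interval 6.01 to 21.6) for miR-500b-5p and 14.1 (5.76 to 44.9) for miR-500b-3p. The adjusted p by edgeR was 0.000208 for the 5p arm and 0.000395 for the 3p arm. With both libraries that stood apart left out, the ratios were 10.7 (5.37 to 24.2) and 13.5 (5.47 to 43.1). Without NC replicate 2, which held 3 of the 5 NC reads, the ratio of miR-500b-3p was 25.5 (6.78 to 215).

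miR-660 had nearly all of its reads on the 5p arm. miR-660-5p was at 57.7, 62.5, 61.9 and 53.3 normalized CPM in NC and 91.1, 104, 88.3 and 90.0 in circSOD2-sh. The circSOD2-sh libraries were all above the NC libraries, with replicate 2 the highest. The means were 58.8 ± 4.29 and 93.3 ± 7.02 (SD, n = 4 each), and the log2 fold change was 0.66 ± 0.10 (SE) with an adjusted p of 0.000307 by edgeR. Without both libraries that stood apart it was 0.46, with an adjusted p of 0.00275 by edgeR. miR-660-3p had 0, 1, 0 and 0 counts in NC and 1, 0, 3 and 1 in circSOD2-sh, never over the floor, so a difference was not detectable at this depth. In the fit with no filter on low counts, its log2 fold change was 1.94 ± 1.30 (SE), with an adjusted p of 0.374 by edgeR.

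Whether the arms of a hairpin changed together was read from the ratio of 5p to 3p within each library, which does not depend on library scaling apart from an added constant of 0.5 normalized CPM. Over the 117 known hairpins with both arms tested, 58.1% had a called change of this ratio by limma with Benjamini-Hochberg adjustment, and of the 4 member hairpins that could be tested 2 did. In all 4 both arms were called higher, but in miR-501, miR-502 and miR-500b at least 1 arm had passed the filter through circSOD2-sh alone and could only be higher. Only miR-500a had at least 10 counts of both arms in every library. Its 5p arm, with 12 counts in NC replicate 4, was at the limit of the filter there. The filter scales counts by library size, so this arm was not wholly free of it either. Among the 117 hairpins both arms were called in 39, of which 9 had both arms higher, 9 had both lower and 21 had arms that went opposite ways.

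For miR-500a the 5p arm made up 1.76, 1.59, 1.56 and 1.40% of the hairpin's counts in NC and 3.39, 7.23, 4.17 and 5.33% in circSOD2-sh. Each circSOD2-sh library held a larger 5p share than each NC library, with replicate 2 the largest. The log2 ratio of 5p to 3p went up by 1.50 ± 0.23 (SE), with an adjusted p of 0.000246 by limma, and by 1.27 with an adjusted p of 0.000999 without both libraries that stood apart. Under this measure miR-500a was at place 34 of 117 by the size of the change. Reads of the 5p arm may also stem from the miR-500b hairpin, which holds all 23 of its bases. The split of the 3p arm from miR-502-3p is uncertain too, so a changed use of the arms of this hairpin alone was not shown.

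For miR-501 the 5p share was 0, 0, 0.578 and 0% in NC and 4.12, 2.68, 3.40 and 4.28% in circSOD2-sh. The share was higher in all 4 circSOD2-sh libraries, and in NC it rested on 2 reads. The log2 ratio went up by 1.93 ± 0.22 (SE), with an adjusted p of 3.61e-05 by limma. Because the 5p arm was near 0 in NC, the size of this change was set by the constant: it was 3.82 with a constant of 0.1 and 0.35, with an adjusted p of 0.0809 by limma, with a constant of 2. With both libraries that stood apart left out, it was 2.17, with an adjusted p of 0.000233 by limma.

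For miR-502 the 5p share was 0.620, 1.16, 1.09 and 0.962% in NC and 1.14, 1.82, 1.40 and 0.681% in circSOD2-sh. The groups overlapped, and circSOD2-sh replicate 4 was below 3 of the NC libraries. The log2 ratio differed by -0.01 ± 0.25 (SE), with a 95% interval of -0.57 to 0.55 and an adjusted p of 0.974 by limma. With a constant of 2 the difference was -0.46 with an adjusted p of 0.0344 by limma. For miR-500b the 5p share was 0, 62.5, 80 and 100% in NC, from 1 to 8 reads a library, and 47.5, 83.3, 52.0 and 73.6% in circSOD2-sh. Its log2 ratio differed by 0.30 ± 0.50 (SE), with a 95% interval of -0.84 to 1.44 and an adjusted p of 0.633 by limma. Without both libraries that stood apart the differences were -0.14 for miR-502 and 0.15 for miR-500b. Leaving out single libraries turned the direction of both, to at most 0.22 for miR-502 without circSOD2-sh replicate 4 and to -0.09 for miR-500b without circSOD2-sh replicate 2. For these hairpins the intervals hold both no change and a change of the ratio by a log2 of 0.5, so equal movement of the arms was not shown. The arms of miR-660 were not compared, as its 3p arm did not pass the filter on low counts.

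**Figure D2:**
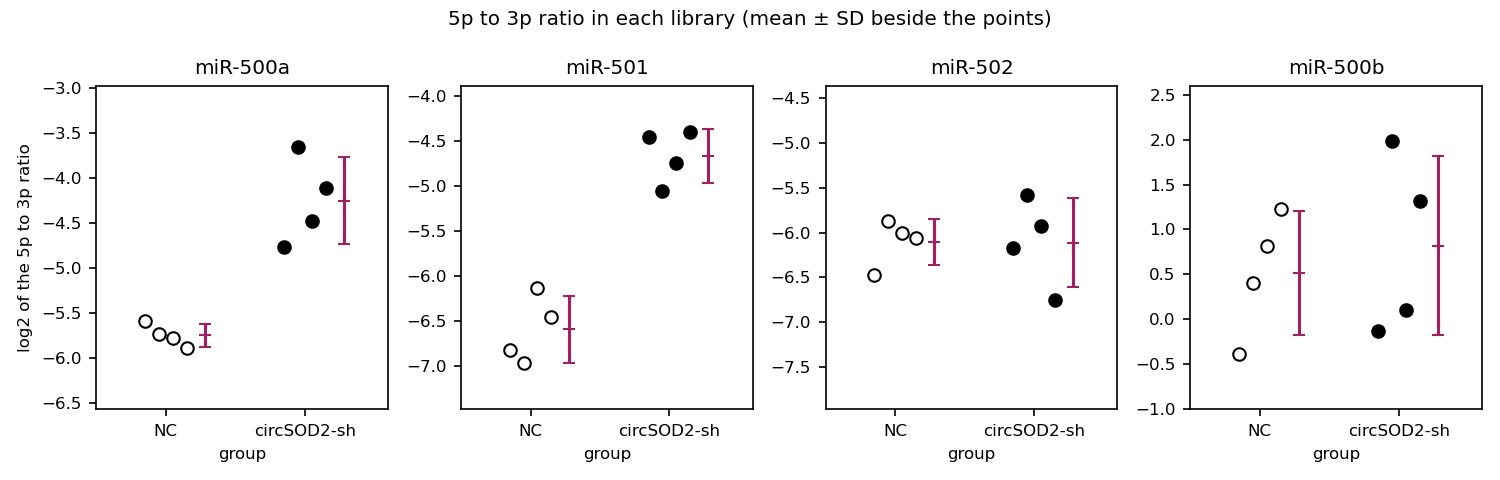
Log2 of the 5p to 3p ratio in each library, with 0.5 normalized CPM added to each arm, for the 4 hairpins with both arms tested (open circles NC, filled circles circSOD2-sh, bars the mean ± SD of 4 libraries, panels with equal height of the axis but different position). The groups are apart for miR-500a and miR-501 and overlap for miR-502 and miR-500b.

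Paralogs were compared by the ratio of 2 related miRNAs of the same arm within each library. Over the 211 pairs of tested known miRNAs whose mature sequences were at most 6 edits apart, 50.7% had a called change by limma with Benjamini-Hochberg adjustment, and of the 9 pairs of members 7 did. The median size of the change was 0.99 for the 9 pairs of members, beside 0.42 for all 211 and 0.48 for the 193 of them without identical counts. In 6 of the 9 pairs an arm had passed the filter through circSOD2-sh alone, so a change of the ratio was partly built in. Where both miRNAs had at least 10 counts in every library, the median was 0.71 for 3 pairs of members and 0.41 for 159 pairs in all. The sizes ran from 0.46 to 1.68 among the members and reached 9.93 among all pairs.

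The abundant 3p arms did not keep their proportions. miR-501-3p and miR-502-3p, which differ by C9U and U22A and share a seed, had a log2 ratio of -0.80, -0.57, -0.88 and -1.08 in NC and -0.22, -0.12, 0.01 and -0.18 in circSOD2-sh. In NC miR-501-3p was thus the lower of the pair in every library, and in circSOD2-sh the pair was nearly equal. The ratio changed by 0.71 ± 0.11 (SE), with an adjusted p of 0.00164 by limma, and by 0.62 with an adjusted p of 0.00788 without both libraries that stood apart. miR-500a-3p to miR-502-3p, 3 edits apart, went from 0.80, 1.05, 0.98 and 1.03 in NC to 0.37, 0.40, 0.51 and 0.49 in circSOD2-sh. This ratio, whose split of shared reads is uncertain, fell by 0.52 ± 0.06 (SE) on the log2 scale, with an adjusted p of 0.000466 by limma. miR-500a-3p to miR-501-3p, also 3 edits apart, fell by 1.23 ± 0.12 (SE), with an adjusted p of 0.000164 by limma, and its NC libraries were all above its circSOD2-sh libraries. Without both libraries that stood apart these ratios changed by -0.49 and -1.11. The 3 pairs among these arms were called again with every alternative tried, and none of the arms had under 10 counts in a library.

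miR-500b-3p had passed the filter through circSOD2-sh alone, so a gain of this arm was partly built in. It gained on miR-500a-3p, with a change of their ratio of -1.68 ± 0.33 (SE) and an adjusted p of 0.00471 by limma. Without both libraries that stood apart the change was -1.83. The size depended on the constant, at -2.92 with 0.1 and -0.55, with an adjusted p of 0.0461 by limma, with 2. Its ratio to miR-501-3p differed by 0.46, with a 95% interval of -0.22 to 1.14 and an adjusted p of 0.248 by limma. This pair was called at 0.71, with an adjusted p of 0.0143 by limma, once circSOD2-sh replicate 2 was left out, at 0.72 (0.0366) once NC replicate 4 was left out with it, at 1.69 (0.0288) with a constant of 0.1, and at -0.65 (0.021) with a constant of 2. With so few reads of miR-500b-3p in NC, the direction of this ratio depended on the constant.

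Among the 5p arms, miR-501-5p, miR-500b-5p and miR-502-5p had passed the filter through circSOD2-sh alone. Each ratio of 5p arms below thus held an arm that could only be higher. miR-501-5p gained on miR-500a-5p, with a change of the ratio of miR-500a-5p to miR-501-5p of -1.66 ± 0.36 (SE) and an adjusted p of 0.00761 by limma. The size depended on the constant, at -3.42 with 0.1 (adjusted p 0.00236 by limma) and -0.42 with 2 (0.312). Without both libraries that stood apart the change was -2.01. miR-500a-5p gained on miR-502-5p by 0.99 ± 0.31 (SE), with an adjusted p of 0.0333 by limma. That call was lost when NC replicate 2 (adjusted p 0.069 by limma), NC replicate 3 (0.0643), NC replicate 4 (0.0655) or circSOD2-sh replicate 2 (0.0687) was left out, with changes of 0.93 to 0.97, and also with both libraries that stood apart left out (0.147), with a constant of 0.1 (0.0985) and with the replicate block (0.101). miR-500b-5p gained on miR-502-5p by 1.47 ± 0.40 (SE), with an adjusted p of 0.0203 by limma, and by 1.63 with an adjusted p of 0.0586 without both libraries that stood apart. The size of this gain depended on the constant, at 2.11 with 0.1 (adjusted p 0.0409 by limma) and 0.90 with 2 (0.0218). miR-500a-5p and miR-500b-5p, whose sequences nest, had a ratio that differed by -0.48 with a 95% interval of -1.25 to 0.28 and an adjusted p of 0.278 by limma, and by -0.19 without NC replicate 1. Their ratio differed by -1.26 with a constant of 0.1 and turned to 0.18 with a constant of 2, and was called with neither. In circSOD2-sh their log2 ratio was between 1.18 and 1.54 in the 4 libraries, and reads of either could have been counted for the other.

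**Figure D3:**
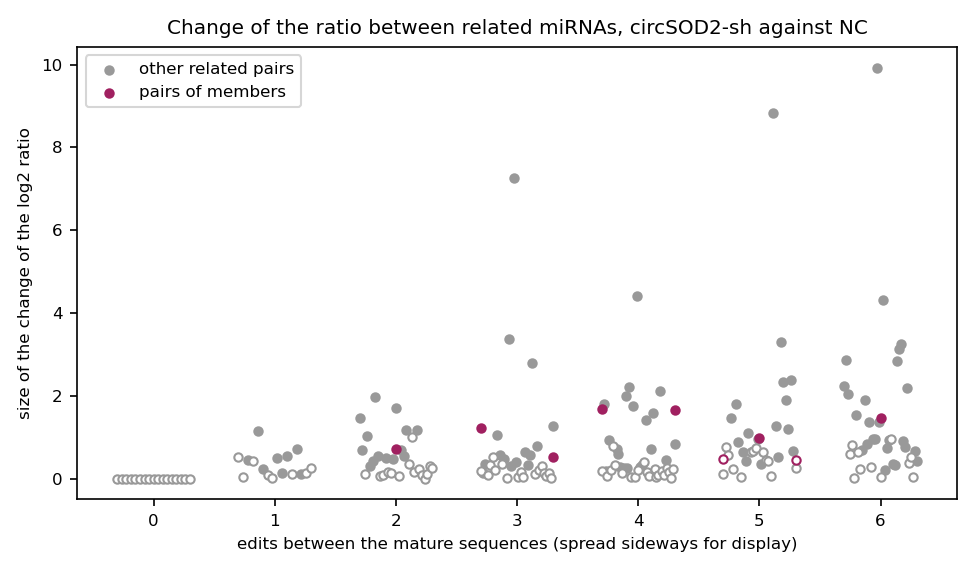
Size of the change of the log2 ratio between related miRNAs against the number of edits between their mature sequences, for 211 pairs of the same arm (filled symbols called at an adjusted p under 0.05 by limma, open symbols not called). The 9 pairs of members lie between 0.46 and 1.68, inside the spread of the other pairs.

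In NC the order of the members by mean normalized CPM was miR-500a-3p, miR-502-3p, miR-660-5p and miR-501-3p, followed by miR-500a-5p at 3.06, with the other 5 under 1. The ranges of miR-660-5p and miR-501-3p overlapped, although miR-660-5p was the higher in all 4 libraries. In circSOD2-sh miR-501-3p stood above miR-660-5p in all 4 libraries without overlap, and the ranges of miR-502-3p and miR-501-3p overlapped, with miR-502-3p the higher in 3 of 4. miR-501-5p moved from place 9 in NC, where its range overlapped that of both neighbours, to place 6. There its range overlapped that of the next, miR-500b-5p, with miR-501-5p the higher in 3 of 4 libraries. Of the summed level of the 10 members, miR-500a-3p made up 46.9 ± 2.23% in NC and 35.2 ± 1.06% in circSOD2-sh (SD, n = 4 each). The share of miR-501-3p was 13.5 ± 1.64% and 23.7 ± 1.12%, and that of miR-502-3p was 24.0 ± 1.26% and 25.8 ± 0.848%. The sum itself was 387, 413, 450 and 383 normalized CPM in NC and 814, 821, 901 and 807 in circSOD2-sh. Its groups did not overlap, and the members together made up between 0.0728 and 0.0787% of the known miRNA counts of an NC library and between 0.115 and 0.127% of those of a circSOD2-sh library. Among the 1482 known miRNAs miR-500a-3p ranked 102 in NC and 90 in circSOD2-sh, and miR-501-3p ranked 157 and 110.

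The other hairpins of the cluster had 3p arms that were nearly absent in NC. miR-532-5p, from the hairpin at the start of the cluster, was at 85.3, 93.0, 101 and 98.0 normalized CPM in NC and 93.1, 85.5, 79.3 and 84.5 in circSOD2-sh. Its groups overlapped, and its log2 fold change was -0.14 ± 0.10 (SE) with an adjusted p of 0.245 by edgeR. It was called lower, at -0.31 with an adjusted p of 0.0487 by edgeR, without circSOD2-sh replicate 1, and at -0.27 (0.031) when TMM took circSOD2-sh replicate 2 for its reference. It was called higher with library totals (0.83, adjusted p 8.55e-05 by edgeR) and the upper quartile (0.70, 0.000389 by edgeR). The same held for the deposited CPM plus 1 (0.68, 0.000427 by limma) or plus 0.1 (0.68, 0.000817 by limma). In these settings its direction flipped, and the median of all miRNAs was higher still. Relative to that median it stood at -0.13 with library totals. miR-532-3p had 0, 0, 0 and 7 counts in NC and 54748, 58860, 41445 and 57848 in circSOD2-sh, a pooled ratio of 32029 (exact 95% counting interval 15545 to 79664). Its level in circSOD2-sh was high in all 4 libraries. miR-188-3p had 0, 0, 0 and 1 counts in NC and 79, 94, 85 and 85 in circSOD2-sh, with a pooled ratio of 361 (64.4 to 14308). miR-362-3p had 0, 0, 0 and 3 counts in NC and 46, 44, 29 and 30 in circSOD2-sh, a pooled ratio of 52.3 (17.6 to 256). For all 3 arms the reads in NC were those of replicate 4, and without it the level was at least 20160-fold higher for miR-532-3p, at least 32.5-fold higher for miR-188-3p and at least 14.1-fold higher for miR-362-3p, against the floor of 3 counts in each of the other 3 NC libraries. Their adjusted p over all 8 libraries was 3.97e-08, 1.11e-07 and 2.64e-05 by edgeR, and since they passed the filter through circSOD2-sh alone, they could only be higher. miR-188-5p, with between 16 and 29 counts in an NC library and between 18 and 37 in a circSOD2-sh library, was not called at 0.43 ± 0.28 (SE) and an adjusted p of 0.196 by edgeR. It was called with library totals (1.39, adjusted p 0.000557 by edgeR), the upper quartile (1.27, 0.000776 by edgeR) and the deposited CPM plus 1 (0.97, 0.00152 by limma) or plus 0.1 (1.20, 0.00242 by limma). With library totals it stood 0.43 above the shifted median. Its change was 0.17 without circSOD2-sh replicate 2 and 0.20 without NC replicate 2. miR-362-5p, which has the seed of miR-500b-5p, was at 36.4, 35.1, 40.4 and 29.2 normalized CPM in NC and 255, 293, 328 and 281 in circSOD2-sh, a log2 fold change of 3.03 ± 0.13 (SE) with an adjusted p of 2.05e-08 by edgeR.

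The 5p share of the miR-532 hairpin was at least 98.4% in every NC library and 0.814 to 0.991% in circSOD2-sh, so most reads lay on the other arm. The level of its 5p arm was not called in the main test, and a change in the choice of strand was not tested. The 5p share of miR-188 went from 95.2 to 100% in NC to 18.6 to 28.2% in circSOD2-sh. The log2 ratio of 5p to 3p changed by -13.85 for miR-532 and -4.50 for miR-188, with adjusted p of 5.49e-09 and 6.54e-08 by limma, and by -0.50 with an adjusted p of 0.279 for miR-362. With 0 reads of the 3p arm in 3 NC libraries, these sizes depended on the constant. They were -15.66 and -6.46 for miR-532 and miR-188 with 0.1, and -12.15 and -2.81 with 2. For miR-362 the change was -0.99 with an adjusted p of 0.00313 by limma without NC replicate 4, and -0.90 (0.01) without circSOD2-sh replicate 2 as well. It was -2.29 (0.0237) with a constant of 0.1 and turned to 0.97 (0.00253) with a constant of 2. In all 3 of these hairpins the 3p arm could only be higher, so a fall of the ratio was partly built in. In none of the members did the main arm of the hairpin change, where enough reads were present to tell it. miR-500a, miR-501 and miR-502 held at least 92.8% of their reads on the 3p arm in every library, and miR-660 at least 99.3% on the 5p arm.

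**Figure D4:**
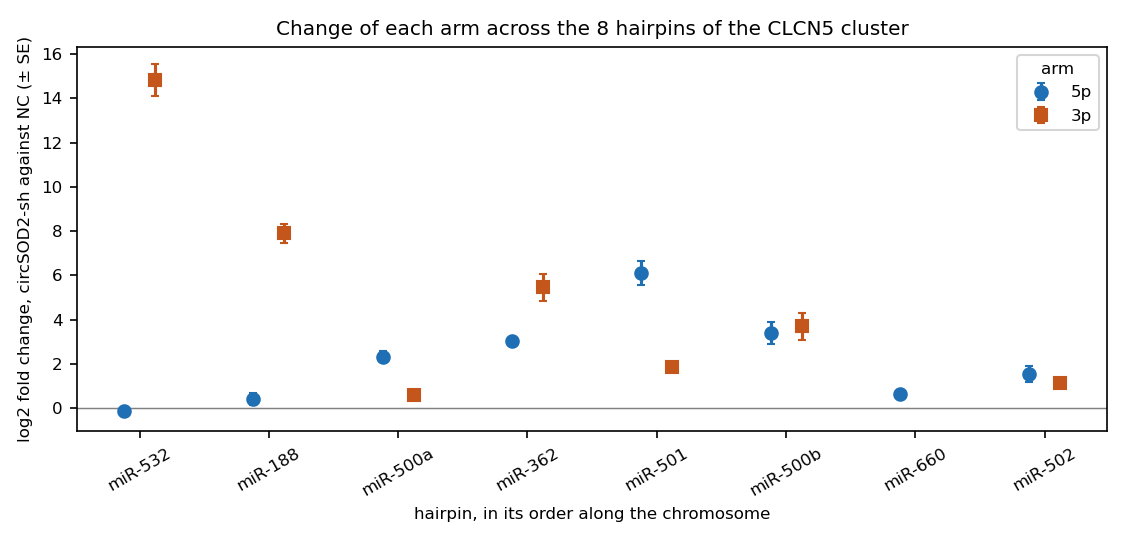
Log2 fold change in circSOD2-sh against NC by edgeR with its SE for each tested arm of the 8 hairpins, in their order along the chromosome (circles 5p, squares 3p). The members lie between 0.62 for miR-500a-3p and 6.11 for miR-501-5p, and miR-532-3p is at 14.82, where fitted values of arms with almost no NC reads depend on the prior count.

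Outside the cluster, 48 of 57 listed arms of other X-chromosomal miRNAs had an entry and 32 were tested. Of these 8 were called higher and 11 lower, beside 33.3% higher and 65.7% in either direction over all 895 miRNAs tested. The 32 arms had a median log2 fold change of -0.13, with changes between -1.19 and 2.64. The most abundant, miR-221-3p, had from 5649 to 6416 normalized CPM across NC libraries and from 5307 to 5820 across circSOD2-sh libraries and was not called, at -0.08 ± 0.07 (SE) with an adjusted p of 0.332 by edgeR. miR-222-3p, which follows in abundance and is expressed from the same locus, fell by 0.43 ± 0.09 (SE), with an adjusted p of 0.00137 by edgeR. miR-361-5p was not called, at 0.06 ± 0.08 (SE) with an adjusted p of 0.522 by edgeR.

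The 5 members with at least 10 counts in every library were compared by pattern, using the root mean square difference of centred log2(normalized CPM + 1) over the 8 libraries. The closest pair was miR-500a-3p and miR-660-5p at 0.14, from different hairpins and different arms. The arms of the miR-500a hairpin were the farthest apart at 0.74, and the pair with a shared seed, miR-501-3p and miR-502-3p, stood at 0.38. The known miRNAs outside the cluster closest to miR-500a-3p were miR-26a-5p (0.07), miR-767-5p (0.09), miR-21-3p (0.10), miR-99b-5p (0.12) and let-7d-5p (0.14), out of 361 with a median distance of 0.50. Those closest to miR-660-5p, the most abundant 5p member, were miR-576-5p (0.12), miR-17-5p (0.13), miR-93-5p (0.13), miR-99b-5p (0.13) and miR-301b-5p (0.13), out of 361 with a median distance of 0.52. These 9 miRNAs had log2 fold changes of 0.41 to 1.00.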

How the data were processed

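The authors deposited counts per mature miRNA, known and predicted, and CPM, which the authors divided by more reads than the table lists. The submitters' processing notes name FastQC 0.11.2, Trimmomatic 0.36, Bowtie 1.1.1 and GRCh38, and the counting tool and miRNA annotation are not given in the sources used here. A deposited table of the authors' own comparison (mean CPM, log2 fold changes, p- and q-values and a call) was not used. Bowtie without a stated rule for reads that match several sequences can split reads between paralogs.

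In R 4.3.3, edgeR 4.0.16 was fitted to the counts of all 8 samples (filterByExpr with a minimum count of 10, TMM with circSOD2-sh replicate 4 as reference, the default prior count, quasi-likelihood test, Benjamini-Hochberg over all miRNAs tested). The SE was taken from the log2 fold change and the F statistic. Ratios within a library were tested with limma 3.58.1 after adding 0.5 normalized CPM. Pooled ratios carry exact 95% binomial intervals. Alternatives were DESeq2 1.42.0, RLE, upper quartile and library totals, other count filters, a prior count of 2, limma on the log2 of the deposited CPM plus 1 or 0.1, known miRNAs only, constants of 0.1 and 2, pairs at most 4 edits apart, the replicate block and samples left out. Moving the TMM reference to each other library and the removal of pairs with identical counts were added after seeing the data. The fits were tested on simulated data. Tables used Python 3.11.15, pandas 2.3.3 and scipy 1.17.1, and figures matplotlib 3.10.9. No pair of libraries of a group was within sampling noise (chi-square per degree of freedom 9.45 to 128).

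Members and lists were chosen with earlier results of these data known. Named are all members, both arms of miR-532, miR-188 and miR-362, for the most abundant member of each arm its 5 closest known miRNAs, and up to 3 of the most abundant miRNAs of each other list. Other marker miRNAs named were chosen after their values were seen.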

Additional observations from a re-analysis of the deposited data

Results flagged for a closer look

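One library lay far from the other 3 of its group for 17 of 74 groups of 4 looked at, and chance flags about 1 in 20 independent groups. The groups looked at share libraries and are not independent. Among the members, miR-500b-5p was at 0 normalized CPM in NC replicate 1, miR-501-5p was at 0.341 in NC replicate 3 and at 5.30 in circSOD2-sh replicate 2, and miR-660-3p was at 0.154 in NC replicate 2. The NC values rest on 0 to 5 counts. The summed level of the members was 901 normalized CPM in circSOD2-sh replicate 3, above the other circSOD2-sh libraries. The log2 ratio of miR-500a-5p to miR-502-5p was 1.68 in NC replicate 1, and that of miR-500b-3p to miR-501-3p was -6.02 in NC replicate 2.

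NC replicate 4 was the only NC library with reads of the 3p arms of the other hairpins, with 1.57 normalized CPM of miR-532-3p, 0.225 of miR-188-3p and 0.674 of miR-362-3p. It also stood apart in stromal markers at 557, leukocyte markers at 17.1, erythroid markers at 171 and muscle markers at 47.4. circSOD2-sh replicate 2 stood apart in neural markers at 5256, stromal markers at 228 and leukocyte markers at 14.7. The part of these markers in the other values of the libraries was not tested.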

How the results depend on the processing

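The 9 members that passed the filter were called higher with RLE, library totals, the upper quartile, DESeq2, no filter on low counts, a prior count of 2, limma on the deposited CPM, the replicate block, each other TMM reference, each sample left out, and NC replicate 4 and circSOD2-sh replicate 2 left out together. Their highest adjusted p over these was 0.0214, for miR-502-5p without both of these. With no filter miR-660-3p was also tested and was not called (adjusted p 0.374). Among known miRNAs alone 7 were called, and miR-500b-3p and miR-502-5p were not tested. With a mean of at least 50 counts 5 members were tested and called, and 361 of all miRNAs were called in place of 588, and fitting known miRNAs alone called 246, with fewer miRNAs tested in both. At least 10 counts in every sample left 1 member hairpin with a called arm ratio in place of 2 and 3 pairs of members in place of 7, and at most 4 edits left 58 of the pairs in place of 107, with fewer tested each time.

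Leaving out 1 sample gave 537 to 661 called miRNAs, 9 of the members, 62 to 74 hairpins, 2 member hairpins, 90 to 108 pairs and 6 to 7 pairs of members. The replicate block gave 574, 9, 64, 2, 97 and 6. Correlations between NC and circSOD2-sh samples of the same number were 0.26, -0.10, 0.10 and -0.17, so the samples were treated as sharing only a number.

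Directions turned for these results, and the cause was not tested unless named. miR-532-5p was at 0.83 with library totals, 0.70 with the upper quartile and 0.68 with the deposited CPM plus 1 or 0.1, where the median of all miRNAs shifted. The arm ratio of miR-500b was -0.0288 with a constant of 0.1, -0.0310 without NC replicate 1 and -0.0853 without circSOD2-sh replicate 2, and its range with 1 sample left out was -0.0853 to 0.607. That of miR-502 was 0.26 with a constant of 0.1, 0.10, 0.05 and 0.03 without NC replicates 2, 3 and 4, and 0.03 and 0.22 without circSOD2-sh replicates 1 and 4, and its range was -0.17 to 0.22. With a constant of 2 the arm ratio of miR-362 was 0.97, the ratio of miR-500a-5p to miR-500b-5p was 0.18 and that of miR-500b-3p to miR-501-3p was -0.65. Over all alternatives, 386 values of single levels, 70 of arm ratios and 111 of pair ratios kept their direction and their side of the threshold. Depth limits the arms of miR-500b, miR-501-5p, miR-502-5p and miR-660-3p, which had at most 7 counts in any NC library.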
